A study of Mus musculus with 6 samples.

Results

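The genes described here encode the fibrillar collagens and matrix proteins of connective tissue: Col1a1, Col1a2, Col3a1, Col5a1, Col5a2, Fn1, Postn, Lum, Dcn and Lox. They were taken as the 10 genes of that name with a probe set that the platform annotation assigns to 1 symbol, out of 18193 genes so annotated. Together they have 21 probe sets, of 45101 on the array, and each gene is represented by its brightest probe set, by the mean over the 6 arrays. All 10 of these passed the filter on dim signals, as did 7 of the other probe sets of the same genes. RNA came from whole ovaries, both of a mouse pooled, of 8-month-old females bred from heterozygotes on the 129T2 svEmsJ background. The 3 FORKO samples are from mice in which all variants of the FSH receptor were deleted, and the 3 WT samples are from wild-type mice of the same age. The labels name no treatment, and the titles number the samples as biological replicates. How many mice gave each sample is not stated, so the p-values cover the spread among these 3 samples a group. Groups were read from titles and genotype fields, although a free-text field of the FORKO samples mentions wild-type mice.

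Collagen types I and III form the tensile fibrils of ovarian stroma, theca and capsule, and type V collagen is built into these fibrils and limits their width. Cells fold 3 collagen chains into a helix, secrete it, trim its ends and crosslink the fibrils, the last step through lysyl oxidase. Small leucine-rich proteoglycans such as decorin and lumican sit on the fibril surface and regulate its assembly, while fibronectin and periostin link fibrils to cells and to other matrix. In the ovary this matrix is remodelled as follicles grow, rupture and turn into corpora lutea.

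Every sample had 1 array of the type Affymetrix Mouse Genome 430 2.0. The signals below are MAS5 intensities scaled to 1 trimmed mean. Changes are differences of mean log2(signal + 5.73), FORKO minus WT, and are too small for dim probe sets because of the added constant. The number of arrays limits the precision. The probe set of the deleted gene, Fshr, read 1.20, 11.2 and 11.7 in FORKO replicates 1, 2 and 3, against 99.6, 59.4 and 118.8 in WT replicates 1, 2 and 3 (log2 change -2.90 ± 0.39, SE; limma adjusted p = 0.0102). It did not pass without WT replicate 1 or without WT replicate 3 (highest limma adjusted p = 0.0598). Whether its probes fall inside the deletion is not known here. Of 9 granulosa markers with a probe set, 8 were measured above the filter, and the probe set of Amh read 0.830 to 1.16 over all arrays. FORKO replicate 1 stood apart from the others: across probe sets its log2 signals correlated with FORKO replicates 2 and 3 at 0.954 to 0.955, against 0.970 between those 2 arrays and 0.967 to 0.968 within WT. Results that rest on this array are given with and without it.

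With limma and adjustment over all 22506 probe sets, 0 of the 10 genes reached an adjusted p under 0.05. Over all 11199 tested genes 2.14% reached it (1.30% higher and 0.839% lower in FORKO), as did 1.65% of probe sets. At an unadjusted p under 0.05 the same test gave 5 of the 10 genes, against 16.8% of all tested genes. Of these, Col1a1, Col5a2, Postn and Lum had lower signals in FORKO, against 8.16% of all genes, and Dcn had higher ones, against 8.64%. With the replicate number as a block, Col5a2 and Lum fell (limma adjusted p = 0.0159 and 0.0369), where 3.98% of all genes were called, 1.58% lower and 2.40% higher. The block was chosen from correlations in these same values, not from the labels. All p-values with the block, here and below, are therefore descriptive only. Without FORKO replicate 1, Fn1 rose and Postn fell (limma adjusted p = 0.00156 and 0.0200), where 4.80% of all genes were called, 3.19% higher and 1.61% lower, and 3.84% of probe sets. These calls therefore differ with the arrays and the design used. Dcn also rose where arrays were scaled to the bacterial spikes (limma adjusted p = 0.0192), a setting that moved the median of all probe sets by 0.16 on the log2 scale and called 3.30% of all genes, 2.73% higher and 0.572% lower. In whole ovaries, fewer cells of a type and less RNA per cell cannot be told apart.

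**Figure D1:**
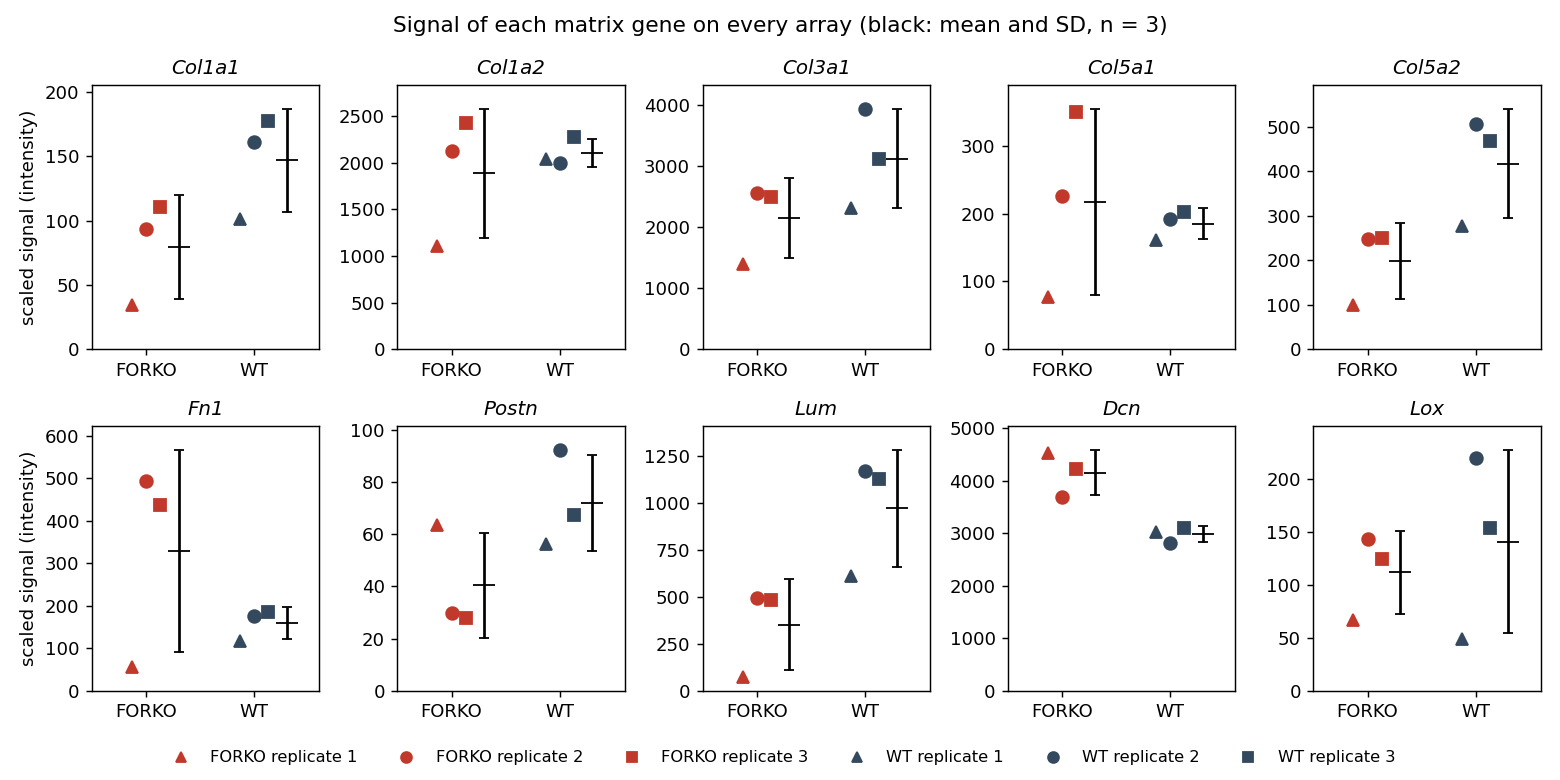
Scaled signal (intensity, linear axis from 0) of each gene on every array, FORKO in red and WT in dark blue, with marker shapes for replicate numbers and black bars for mean and SD (n = 3). The groups do not overlap for Col5a2, Lum and Dcn, and FORKO replicate 1 is the lowest array of all for 7 of the 10 genes.

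Type I collagen is a helix of 3 chains of 2 kinds, encoded by Col1a1 and Col1a2. Col1a1 read 34.3, 93.8 and 110.7 in FORKO replicates 1, 2 and 3, against 101.5, 160.8 and 177.5 in WT replicates 1, 2 and 3. FORKO replicates 1 and 2 lay below all WT arrays, and FORKO replicate 3 lay above the lowest WT array. The means were 79.6 ± 40.1 in FORKO and 147 ± 40.0 in WT (SD, n = 3 each), and the log2 change was -0.94 ± 0.38 (SE; adjusted p = 0.289 from limma). It was -0.46 without FORKO replicate 1 (limma adjusted p = 0.378). Col1a2 read 1109, 2124 and 2426 in the FORKO arrays, against 2043, 2001 and 2272 in the WT arrays. Here FORKO replicate 1 alone lay below the WT arrays, FORKO replicate 2 lay among them and FORKO replicate 3 above them. The log2 change of Col1a2 was -0.23 with a 95% interval of -0.80 to 0.34 (limma adjusted p = 0.746), and 0.11 without FORKO replicate 1. A dimmer probe set of Col1a2 showed the same order of arrays within FORKO, with 105.3, 376.1 and 503.2 in FORKO replicates 1, 2 and 3 against 334.7, 394.0 and 548.5 in WT. The second probe set of Col1a1 was below the filter, at 10.6 to 17.2 in FORKO and 1.35 to 25.1 in WT.

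Col3a1 encodes the single chain of type III collagen, which is abundant in soft, extensible tissue. It read 1404, 2558 and 2502 in FORKO replicates 1, 2 and 3, against 2317, 3935 and 3113 in WT replicates 1, 2 and 3. All FORKO arrays lay below WT replicates 2 and 3, and 2 of them lay above WT replicate 1. Col3a1 differed by -0.55 ± 0.26 in log2 (SE; limma adjusted p = 0.362), and by -0.27 without FORKO replicate 1. Its other probe set read 61.9, 188.6 and 210.1 in FORKO, against 144.2, 326.2 and 409.6 in WT, a log2 change of -0.96 that passed with the replicate block (limma adjusted p = 0.0203, where 3.07% of probe sets did) and not without it (0.396).

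The 2 genes for type V chains in the set had unlike values. Col5a2 read 98.9, 247.4 and 248.9 in FORKO replicates 1, 2 and 3, against 277.1, 505.6 and 468.2 in WT replicates 1, 2 and 3, so that every FORKO array lay below every WT array. Col5a2 differed by -1.11 ± 0.36 in log2 (SE; limma adjusted p = 0.180; exact two-sided permutation p = 0.1, the smallest that 3 against 3 arrays can give). It was -0.69 without FORKO replicate 1. The other probe set of Col5a2 also separated the groups, with 52.7, 72.0 and 72.7 in FORKO against 89.6, 113.0 and 200.4 in WT. Col5a1 read 76.5, 226.1 and 349.5 in FORKO, against 160.4, 192.7 and 203.0 in WT. FORKO arrays of Col5a1 thus lay on both sides of the WT range. Its log2 change was -0.01 with a 95% interval of -0.98 to 0.97, positive with spike scaling and with quantile normalization, and 0.59 without FORKO replicate 1 (limma adjusted p = 0.181). A second tested probe set of Col5a1 gave 81.6, 170.2 and 161.0 in FORKO and 89.2, 126.2 and 108.0 in WT.

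Lumican and decorin are related proteoglycans that bind collagen fibrils, and their genes, Lum and Dcn, are next to each other in the GRCm38.p6 gene table with no protein-coding gene between them. Lum had the largest negative log2 change of the 10 genes. It read 70.8, 494.5 and 484.8 in FORKO replicates 1, 2 and 3, against 612.5, 1169 and 1128 in WT replicates 1, 2 and 3. Every FORKO array lay below every WT array, and FORKO replicate 1 was several times below the other FORKO arrays. The log2 change of Lum was -1.82 ± 0.62 (SE; limma adjusted p = 0.212; exact two-sided permutation p = 0.1), and -0.92 ± 0.24 without FORKO replicate 1 (limma adjusted p = 0.0573). Dcn read 4537, 3686 and 4235 in FORKO, against 3031, 2822 and 3103 in WT. All FORKO arrays of Dcn lay above all WT arrays, and FORKO replicate 1, the lowest array for Lum, was the highest for Dcn. Dcn averaged 4153 ± 431 in FORKO and 2985 ± 146 in WT (SD, n = 3 each), with a log2 change of 0.47 ± 0.12 (SE; limma adjusted p = 0.105), and it had the lowest adjusted p of the 10 genes. A far dimmer probe set of Dcn read 81.8, 86.6 and 71.5 in FORKO, against 86.4, 62.8 and 83.5 in WT, with overlapping groups. The groups did not overlap for 3 of the 10 genes, Col5a2, Lum and Dcn, where 22.6% of all tested genes had no overlap (FORKO below WT in 12.0% and above it in 10.7%).

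Fn1 encodes fibronectin, the glycoprotein that cells use to start fibril assembly and to adhere through integrins. Its probe set read 55.9, 493.4 and 436.7 in FORKO replicates 1, 2 and 3, against 117.0, 176.1 and 185.7 in WT replicates 1, 2 and 3. FORKO replicates 2 and 3 lay above all WT arrays and FORKO replicate 1 below all of them. Over the 6 arrays Fn1 differed by 0.56 ± 0.66 in log2 (SE; limma adjusted p = 0.770), and without FORKO replicate 1 it was 1.53 ± 0.22 (SE; limma adjusted p = 0.00156). It was 0.02 without FORKO replicate 2 and 0.11 without FORKO replicate 3. A second, dim probe set of Fn1, below the filter, read 5.25, 16.5 and 14.4 in FORKO, against 1.45, 3.75 and 1.52 in WT.

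Postn encodes periostin, a matricellular protein of fibroblasts that promotes collagen crosslinking. Its probe set read 63.7, 29.7 and 28.0 in FORKO replicates 1, 2 and 3, against 56.3, 92.2 and 67.4 in WT replicates 1, 2 and 3. FORKO replicates 2 and 3 lay below all WT arrays, and FORKO replicate 1 lay within the WT range. Postn differed by -0.81 ± 0.31 in log2 (SE; limma adjusted p = 0.259), and by -1.14 ± 0.25 without FORKO replicate 1 (SE; limma adjusted p = 0.0200). Postn and Fn1 were thus the 2 genes that passed without that array, in opposite directions.

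Lox encodes lysyl oxidase, the enzyme that starts the crosslinks of collagen and elastin. It read 67.2, 143.4 and 124.4 in FORKO replicates 1, 2 and 3, against 49.1, 220.3 and 153.3 in WT replicates 1, 2 and 3. The WT arrays spanned the whole FORKO range. Its log2 change was -0.16 with a 95% interval of -1.21 to 0.90 (limma adjusted p = 0.918), and it was 0.0046 with spike scaling. Another tested probe set of Lox read 29.4, 39.4 and 36.1 in FORKO, against 11.3, 79.4 and 32.2 in WT.

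**Figure D2:**
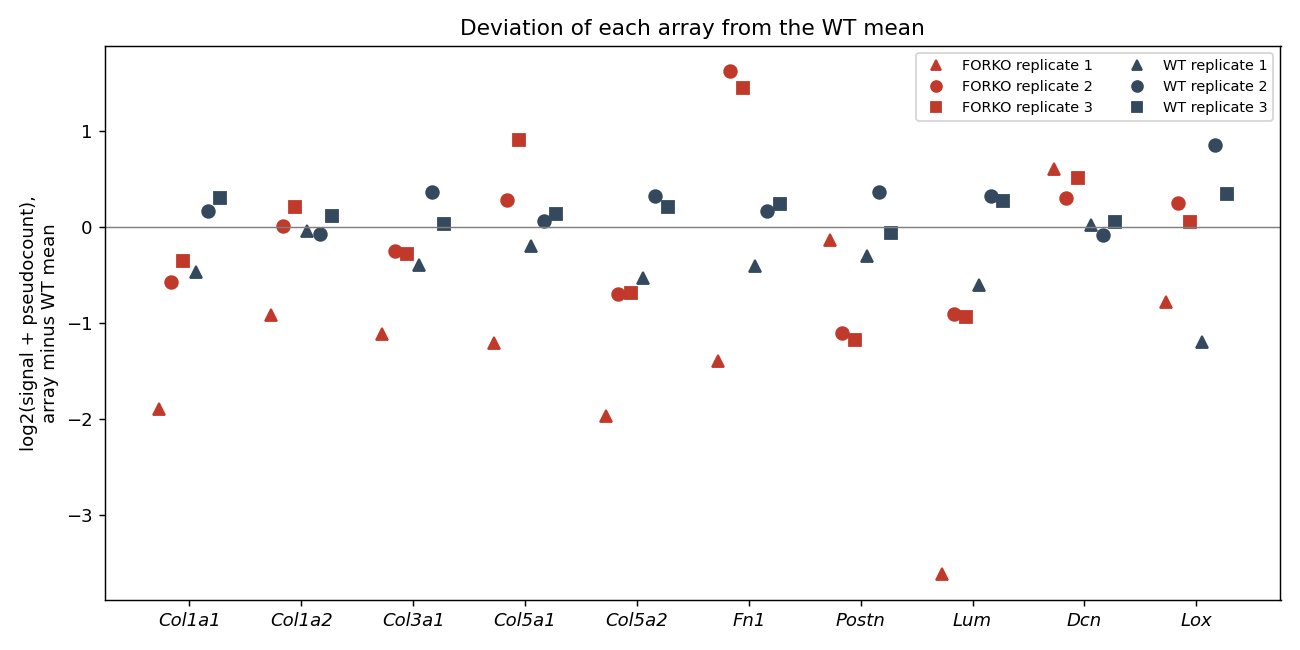
Deviation of each array from the WT mean on the scale log2(signal + 5.73), for each gene, with FORKO in red, WT in dark blue and marker shapes for replicate numbers. FORKO replicate 1 lies farthest down for Lum, whereas FORKO replicates 2 and 3 lie close together for Lum, Col5a2, Fn1 and Postn.

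Across the 10 genes, 8 had a negative log2 change, against 52.6% of all tested genes, and the median was -0.39, against -0.02 over all tested genes. Without FORKO replicate 1 the median was -0.08, and 5 genes had a negative change: Col1a1, Col3a1, Col5a2, Postn and Lum. The median deviation from the WT mean was -1.16, -0.12 and -0.12 in FORKO replicates 1, 2 and 3. It was -0.40, 0.24 and 0.17 in WT replicates 1, 2 and 3. FORKO replicate 1 was the lowest of the 6 arrays for 7 of the 10 genes, where this held for 25.9% of all tested genes, and the lowest FORKO array for 8, against 41.8% of all genes. WT replicate 1 was the lowest WT array for 8 of the 10 genes, against 36.0% of all genes. Each array numbered 1 was thus the lowest of its own group for Col1a1, Col3a1, Col5a1, Col5a2, Fn1, Lum and Lox.

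**Figure D3:**
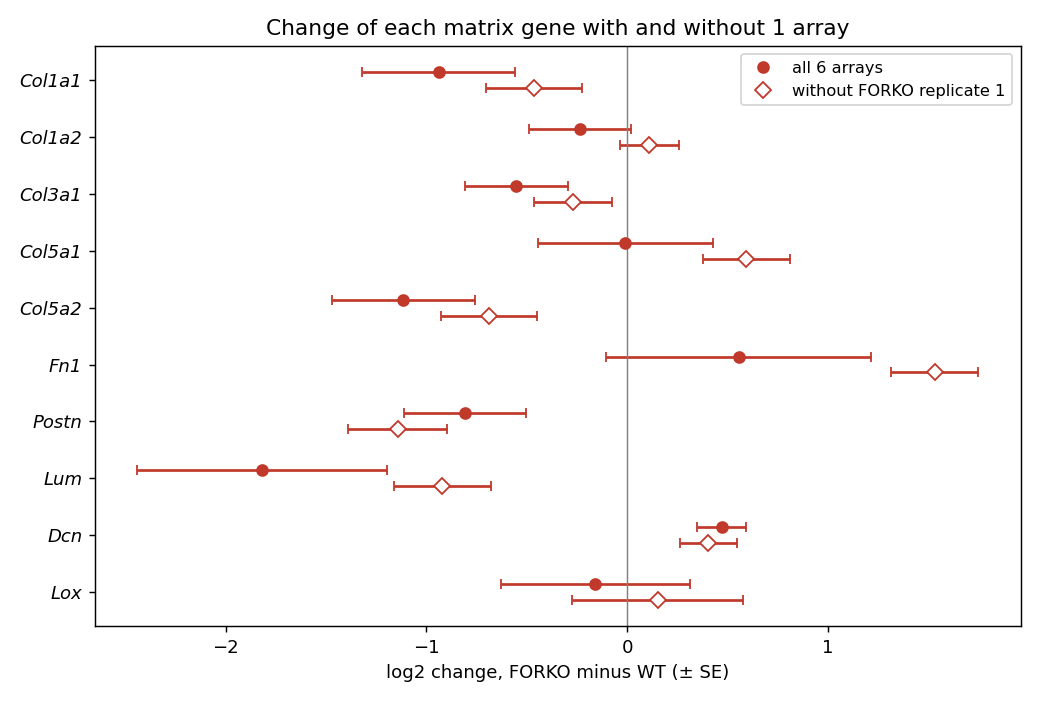
Log2 change of each gene, FORKO minus WT, with its SE, from all 6 arrays (filled circles) and without FORKO replicate 1 (open diamonds). Leaving that array out moves Fn1 to 1.53 and Lum to -0.92, and leaves Dcn between 0.40 and 0.47.

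Unequal change of 2 genes was compared as their log2 difference within each array, for 6 pairs. These pairs were chosen with earlier results of these data known, and their differences reuse the signals given above. Lum minus Dcn was -5.89, -2.88 and -3.11 in FORKO replicates 1, 2 and 3, against -2.30, -1.27 and -1.46 in WT replicates 1, 2 and 3. The groups did not overlap, and the difference between them was -2.29 (exact two-sided permutation p = 0.1, adjusted over the 6 pairs 0.2). It was -1.32 without FORKO replicate 1. Col5a2 minus Col3a1, 2 collagen genes that are also next to each other in the gene table, was -3.75, -3.34 and -3.30 in FORKO against -3.04, -2.95 and -2.72 in WT, again without overlap. Fn1 minus Col1a1 was 0.62, 2.33 and 1.93 in FORKO, against 0.19, 0.13 and 0.06 in WT. All FORKO arrays, FORKO replicate 1 included, lay above all WT arrays in this difference, and the exact permutation p was 0.1 for this pair and for Col5a2 minus Col3a1 (adjusted 0.2 for both). The groups overlapped for Col3a1 minus Col1a1, Postn minus Col1a1 and Lox minus Col1a1 (exact permutation p = 0.3, 1 and 0.2). No pair can pass at 0.05, since 0.1 is the smallest p for 3 against 3 arrays.

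Likeness of pattern was measured as the root-mean-square difference between centred log2 values over the 6 arrays, against Col1a1, for 11198 genes. Col5a2 was the second closest of all genes, at a distance of 0.14, and Col3a1 ranked 86, at 0.32. Col1a2 ranked 374, Col5a1 859, Lox 2069 and Lum 2481, while Postn (8320), Fn1 (9283) and Dcn (9443) were far down the order. The 5 closest genes outside the set were Gsto1, Sfrp1, Spc25, Ttk and Pbk, at distances of 0.13 to 0.17. Gsto1, the closest of all genes, read 90.7, 179.0 and 218.4 in FORKO replicates 1, 2 and 3, against 196.5, 303.9 and 342.3 in WT. Sfrp1, a secreted Wnt antagonist, read 41.5, 157.2 and 141.2 in FORKO replicates 1, 2 and 3, against 137.0, 211.2 and 220.4 in WT. The 5 genes did not pass limma's test (adjusted p = 0.195 to 0.381). This order describes 6 arrays from 2 groups and carries no test.

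RefSeq start-site windows of 300 bases on GRCm38.p6 were at hand for 4 of the 10 genes, and 3 are shown: Col1a2 and Col3a1, whose arrays were low together in FORKO replicate 1, and Postn, whose arrays were not. The window of Col5a1, for which FORKO replicate 1 was also the lowest array, is not shown and holds none of the motifs searched. The upstream window of Postn is not shown either and holds an ATTGG that begins at base 25 from its listed start. Capitals mark CCAAT or its reverse complement ATTGG, and TATAAA or TTTATA, searched on both strands; the matches do not overlap.
Col1a2, chr6:4505368-4505667, + strand: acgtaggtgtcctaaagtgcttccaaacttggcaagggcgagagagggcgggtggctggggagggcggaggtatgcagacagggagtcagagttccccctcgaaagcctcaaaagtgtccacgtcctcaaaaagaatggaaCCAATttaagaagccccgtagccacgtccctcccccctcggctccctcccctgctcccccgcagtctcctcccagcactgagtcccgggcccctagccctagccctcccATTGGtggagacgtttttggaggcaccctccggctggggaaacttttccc
Col3a1, chr1:45311288-45311587, + strand: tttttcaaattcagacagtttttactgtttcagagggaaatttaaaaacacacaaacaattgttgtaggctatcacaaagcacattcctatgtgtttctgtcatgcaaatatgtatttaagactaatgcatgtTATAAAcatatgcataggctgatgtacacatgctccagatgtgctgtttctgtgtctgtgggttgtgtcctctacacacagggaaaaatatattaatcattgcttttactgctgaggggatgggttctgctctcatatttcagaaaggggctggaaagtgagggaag
Postn, the downstream of its 2 windows, chr3:54360857-54361156, + strand: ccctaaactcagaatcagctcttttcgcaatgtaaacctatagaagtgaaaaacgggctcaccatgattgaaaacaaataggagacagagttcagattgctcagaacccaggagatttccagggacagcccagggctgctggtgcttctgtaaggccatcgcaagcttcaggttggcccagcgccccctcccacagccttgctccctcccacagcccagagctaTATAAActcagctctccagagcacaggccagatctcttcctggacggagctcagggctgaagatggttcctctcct
The TATAAA of Postn begins 26 bases before the listed start, that of Col3a1 117 bases before it, and Col1a2 has 1 CCAAT 109 bases before its start and 1 ATTGG at it. CCAAT in either orientation occurred in 37.4% of all 32851 windows of this length, and TATAAA in 13.6%. The matches describe these letters only.

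The genes that fold and modify collagen chains had changes centred near 0. Of 16 measured, 0 had a limma adjusted p under 0.05 and 1 an unadjusted p under 0.05, against 16.8% of all tested genes. The median of the 16 was -0.03 (0.02 without FORKO replicate 1 and 0.14 with spike scaling). The largest changes were those of 2 members of the prolyl 3-hydroxylase family. P3h1 read 43.7, 73.3 and 67.0 in FORKO replicates 1, 2 and 3, against 106.0, 117.8 and 69.0 in WT (log2 change -0.62, limma adjusted p = 0.301). P3h3 read 44.9, 69.4 and 46.2 in FORKO, against 72.1, 84.0 and 69.8 in WT. P3h2 went the other way, with 85.6, 88.2 and 111.4 in FORKO against 60.7, 68.9 and 79.6 in WT. Its log2 change was 0.42 (limma adjusted p = 0.359), and that of P3h4 was 0.07. Among 6 genes for procollagen trimming and crosslinking, none passed and 0 reached an unadjusted p under 0.05 (median 0.05, and 0.18 without FORKO replicate 1). Loxl1, a relative of lysyl oxidase that acts on elastic fibres, read 59.4, 116.0 and 115.5 in FORKO, against 71.4, 172.1 and 165.0 in WT, and the transglutaminase gene Tgm2 read 2060, 1819 and 2089 in FORKO, against 1734, 1538 and 1722 in WT. Arrays of Loxl1 numbered 1 were the lowest of both groups, whereas Tgm2 was higher on every FORKO array than on every WT array.

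None of 8 other fibril-forming and fibril-associated collagens passed, and 1 reached an unadjusted p under 0.05, against 16.8% of all tested genes. The median of the 8 was -0.14 (-0.04 without FORKO replicate 1 and 0.01 with spike scaling). Col27a1, a fibrillar collagen, read 27.9, 52.7 and 62.8 in FORKO replicates 1, 2 and 3, against 87.3, 67.7 and 90.3 in WT (log2 change -0.76, limma adjusted p = 0.236, and -0.46 without FORKO replicate 1). Col6a1, a chain of the beaded-filament collagen VI, read 415.2, 746.5 and 901.9 in FORKO, against 446.7, 354.1 and 667.7 in WT. Of 7 other small leucine-rich proteoglycans, 5 had a positive change, where 52.6% of all tested genes had a negative one. None of the 7 passed and 2 reached an unadjusted p under 0.05, against 16.8% of all tested genes. The median of the 7 was 0.29 (0.66 without FORKO replicate 1). Prelp read 74.0, 83.5 and 99.2 in FORKO, against 56.7, 35.2 and 72.6 in WT, and Omd 78.3, 172.7 and 167.3 in FORKO, against 104.2, 53.2 and 103.4 in WT. All FORKO arrays of Prelp lay above all WT arrays, and those of Omd did so in replicates 2 and 3. The median of this list had the sign of Dcn and not of Lum.

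Among 18 elastic and other matrix glycoproteins, 1 rose and 17 did not pass. A negative change was found in 14, against 52.6% of all tested genes, and the median of the list was -0.35. At an unadjusted p under 0.05 there were 8 of these 18 genes, Spon1, Fbln5 and Efemp1 with higher signals in FORKO and Fbn2, Mfap2, Mfap5, Emilin1 and Vcan with lower ones, where 16.8% of all tested genes reached it. The gene that rose was Spon1, which encodes the secreted matrix protein spondin 1. Spon1 read 1032, 723.2 and 809.9 in FORKO replicates 1, 2 and 3, against 350.1, 184.4 and 235.8 in WT replicates 1, 2 and 3. All FORKO arrays lay far above all WT arrays (log2 change 1.75 ± 0.24, SE; limma adjusted p = 0.0103). It did not pass without WT replicate 2 or without WT replicate 3 (highest limma adjusted p = 0.0588). The median deviation of this list was -0.65, -0.09 and -0.13 in FORKO replicates 1, 2 and 3, and the median change over the other 5 arrays was -0.13. Mfap2, which encodes a microfibril protein, passed with the replicate block (limma adjusted p = 0.0307) and read 99.7, 210.7 and 203.8 in FORKO, against 197.0, 341.4 and 353.0 in WT.

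Of 9 collagen and fibronectin receptors, 7 had a positive change, where 52.6% of all tested genes had a negative one. None of the 9 passed and 3 reached an unadjusted p under 0.05, against 16.8% of all tested genes. The median of the 9 was 0.18, with 0.34 without FORKO replicate 1 and 0.08 without FORKO replicate 2. Itgb5, an integrin chain for vitronectin and related ligands, read 784.6, 1360 and 1399 in FORKO replicates 1, 2 and 3, against 607.4, 786.4 and 632.6 in WT. It rose without FORKO replicate 1 (limma adjusted p = 0.00370, against 0.152 with all arrays). Ddr2, a receptor tyrosine kinase that fibrillar collagen activates, read 109.5, 160.6 and 142.3 in FORKO, against 216.3, 249.1 and 232.8 in WT. All FORKO arrays of Ddr2 lay below all WT arrays, and it fell with the replicate block (limma adjusted p = 0.0406, against 0.0899 without the block). Of 15 genes for TGF-beta ligands, their latent binding proteins, receptors and mediators, none passed and 5 reached an unadjusted p under 0.05. That p was reached by 16.8% of all tested genes. The median of the 15 was 0.15. Smad7 rose without FORKO replicate 1 (log2 change 0.97, limma adjusted p = 0.0440, against 0.295 with all arrays). That fit called 4.80% of all tested genes. Ltbp4, which holds latent TGF-beta in the matrix, read 132.7, 102.5 and 102.1 in FORKO, against 55.0, 56.7 and 76.2 in WT. Tgfbr3, the co-receptor betaglycan, read 1997, 1536 and 1748 in FORKO, against 1173, 724.8 and 1266 in WT, and it rose with the block (limma adjusted p = 0.0377). Both genes were higher on every FORKO array than on every WT array, with limma adjusted p of 0.0961 for Ltbp4 and 0.124 for Tgfbr3 in the fit without the block.

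**Figure D4:**
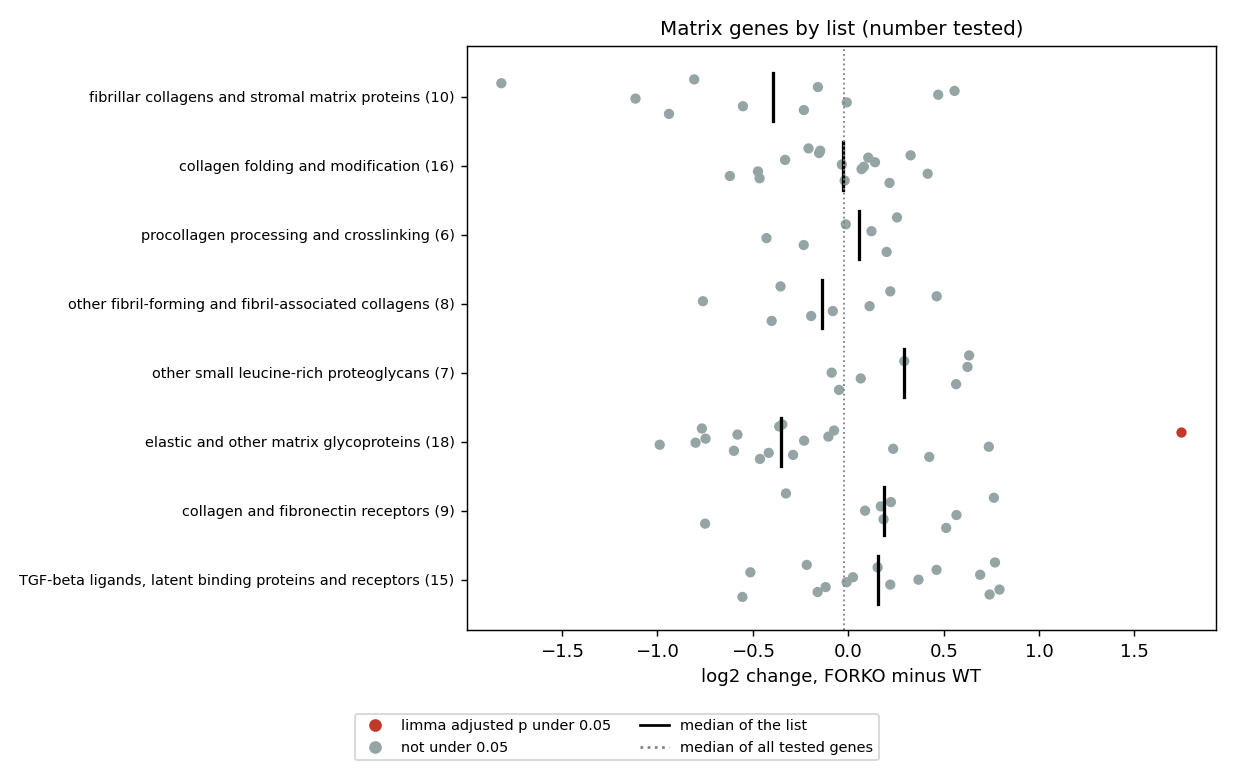
Log2 change, FORKO minus WT, of each tested gene (points) by list, with the median of each list (black bar) and of all tested genes (dotted line). Spon1 at 1.75 is the point in red that passed limma's test, and the 10 genes of this set spread from -1.82 to 0.56.

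Markers of the cells that a whole ovary holds were read on the same arrays. Of 9 fibroblast and stromal markers, all were measured, and their summed signal was 2014 to 2508 in FORKO and 2074 to 2407 in WT, which overlap. Fap, a protease of activated fibroblasts, fell: it read 28.4, 30.6 and 37.7 in FORKO replicates 1, 2 and 3, against 105.8, 138.5 and 114.8 in WT (log2 change -1.72 ± 0.20, SE; limma adjusted p = 0.00476). The other 8 did not pass; Pdgfra averaged 1137 ± 111 in FORKO and 834 ± 91.3 in WT, and Pdgfrb 245 ± 115 in FORKO and 421 ± 22.5 in WT (SD, n = 3 each). The summed signal of 8 smooth muscle markers was 1252, 2577 and 2769 in FORKO replicates 1, 2 and 3, against 2312 to 2746 in WT, and that of 9 granulosa markers was 6131, 15016 and 15731 in FORKO, against 12714 to 16601 in WT. FORKO replicate 1 had the lowest sum for both lists. Not every marker followed the sums. Of the 8 measured granulosa markers, Fshr, Inha, Inhba, Inhbb, Hsd17b1 and Nr5a2 were lowest in FORKO replicate 1, and Foxl2 and Amhr2 were not. Inhba read 54.2, 3867 and 3756 in FORKO replicates 1, 2 and 3, against 2046 to 4332 in WT. Inhbb read 29.7, 1640 and 1362 in FORKO, against 673.1 to 1209 in WT. Foxl2 read 849.5, 872.0 and 819.2 in FORKO, against 625.9 to 809.8 in WT. Amhr2 read 2841, 2128 and 2941 in FORKO, against 1550 to 1745 in WT. Among smooth muscle markers Acta2, Myh11 and Tagln were lowest in FORKO replicate 1, and Cnn1, Actg2 and Smtn were not. Acta2 alone read 755.5, 1935 and 2157 in FORKO replicates 1, 2 and 3 and made up most of that sum. The median deviation of the 6 measured smooth muscle markers from the WT mean was -0.98, -0.48 and -0.50 in these arrays. Myh11, Cnn1 and Actg2 were lower on every FORKO array than on every WT array, as were 12.0% of all tested genes, and Smtn had a positive change. The 10 macrophage markers summed to 4994, 2331 and 2984 in FORKO, against 2376 to 2686 in WT, and the 9 surface epithelium markers to 2404, 1420 and 1569 in FORKO, against 789 to 875 in WT. FORKO replicate 1 was the highest array for both. The 5 theca and interstitial markers with a probe set summed to 9710 to 11551 in FORKO and 13162 to 14297 in WT, the 10 oocyte markers to 348 to 604 in FORKO and 957 to 1181 in WT, and the 7 endothelial markers to 670 to 783 in FORKO and 498 to 551 in WT. Among the endothelial markers, Vwf read 387.0, 177.0 and 190.8 in FORKO replicates 1, 2 and 3, against 134.0, 109.5 and 89.3 in WT. Vwf and Kdr were higher on every FORKO array than on every WT array, as were 10.7% of all tested genes. The groups overlapped for Cdh5, Tek and Emcn, and Cdh5 and Emcn were lowest in FORKO replicate 1. The endothelial sum was thus not followed by every marker. Only 2 of 5 erythrocyte markers had a probe set, and these summed to 10.8 to 27.9 in FORKO and 16.6 to 27.2 in WT. By limma's adjusted p, 3 of 9 surface epithelium markers rose (Krt8, Krt18 and Gpm6a), 3 of 7 measured oocyte markers fell (Zp2, Oosp1 and Zar1) and 1 of 6 measured smooth muscle markers fell (Actg2). Of all tested genes 1.30% rose and 0.839% fell by the same test. In the 6 fits that each leave out 1 array, Oosp1 passed in all. Zp2 did not pass without WT replicate 1 or 2. Krt8 and Gpm6a passed only without FORKO replicate 1 or 2, and Krt18, Zar1 and Actg2 only without FORKO replicate 1 (highest limma adjusted p 0.0642, 0.202, 0.149, 0.139 and 0.162 for Krt8, Gpm6a, Krt18, Zar1 and Actg2). Of 9 macrophage, 5 endothelial and 5 theca markers, 0 passed without the replicate block. By limma 2, 1 and 3 of them reached an unadjusted p under 0.05, against 16.8% of all tested genes. With the block, Cd14 and Vwf rose and Star and Tagln fell (limma adjusted p = 0.0298, 0.0317, 0.0418 and 0.0361), and of the granulosa markers Amhr2 rose and Nr5a2 fell (0.0346 and 0.0421). That fit called 3.98% of all tested genes, 2.40% higher and 1.58% lower. Nr5a2 read 207.3, 657.5 and 766.5 in FORKO replicates 1, 2 and 3, against 1928, 1636 and 1660 in WT. Its log2 change was -1.87 (limma adjusted p = 0.0547 with all arrays and no block). Nr5a2, Gdf9 and Cnn1 passed without FORKO replicate 1 and not with all arrays. All 3 fell there (limma adjusted p = 0.00055, 0.0209 and 0.0323), where 4.80% of all tested genes were called. The part of these cell types in the results was not tested.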

How the data were processed

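The values analysed are the deposited MAS5 signals of 6 Affymetrix arrays, an intensity per probe set on a linear scale, with MAS5 named in the submitters' processing notes. Which scaling target was used is not known here. Before scaling, trimmed means ran from 80.6 to 98.4 and medians from 17.7 to 23.5, and 0 of 15 array pairs were identical. Arrays were brought to 1 trimmed mean (2% off each end) by factors of 0.895 to 1.09. The pseudocount, 5.73, is the pooled 25th percentile. Without 64 control probe sets and those with a mean scaled signal under 20.4, 22506 remained. limma 3.58.1 (R 4.3.3) fitted genotype alone, with a trend in the eBayes step; tests were two-sided, and p-values were adjusted by Benjamini-Hochberg with a threshold of 0.05. The fit was tested on simulated data. Figures were drawn with matplotlib 3.10.9.

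The 34945 probe sets with 1 symbol in the platform annotation were named (932 had several symbols, 9224 none listed). The genes, lists, rule for named genes and tests were chosen with earlier results of these data known. That rule took the 10 genes, Fshr, the 5 genes closest to Col1a1, and in each list up to 4 that passed or else the 2 largest changes. Cell marker lists are given mainly as sums. Pdgfra, Pdgfrb, Cdh5, Tek, Emcn, Gdf9, P3h2, P3h4 and Smad7 were named after their values were seen. The same holds for the granulosa markers other than Fshr, the smooth muscle markers other than Actg2, and the elastic and matrix glycoproteins other than Spon1. Both groups carry replicate numbers 1 to 3. Same-numbered arrays deviated from their group means together, with correlations of 0.195, 0.134 and 0.358, all above 0.1, and were therefore read as pairs, though the genotype fit reported first has no block. This pairing rests on the data, not on the labels, so p-values with the block, drawn from the same values, are descriptive only. Alternatives were other scalings, pseudocounts and filters, no trend, the block, each array left out, and the mean over a gene's probe sets.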

Additional observations from a re-analysis of the deposited data

How the results depend on the processing

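No gene of the set passed in the fit of all arrays, nor under quantile normalization, as deposited, with the same median, with pseudocounts of 1 or 16, with either other filter, without the trend or with the mean over probe sets. The count was 1 with spike scaling (Dcn), 2 with the replicate block (Col5a2 and Lum), and 0 to 2 with each array left out, the 2 being Fn1 and Postn without FORKO replicate 1. The median change was negative under each of these settings. It was -0.08 without FORKO replicate 1 and -0.75 without WT replicate 1, the ends of the range with arrays left out, and -0.22 with spike scaling, -0.47 with the same median and -0.58 with the mean over probe sets. Over all probe sets 372 passed, against 590 with spike scaling, 221 with no dim filter, 691 with the replicate block, and 62 to 864 with each array left out; the share of higher calls was 64.0%, against 84.1% with spike scaling and 50.6% with the same median.

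Directions turned for Col1a2 (0.11 without FORKO replicate 1, in a range of -0.45 to 0.11 with arrays left out), for Col5a1 (0.16 with spike scaling, 0.14 with the mean over probe sets, 0.0071 with pseudocount 16, 0.0015 with quantile normalization, and 0.02, 0.06 and 0.59 without WT replicate 2, WT replicate 3 and FORKO replicate 1, in a range of -0.46 to 0.59) and for Lox (0.0046 with spike scaling, and 0.01, 0.27 and 0.15 without WT replicate 3, WT replicate 2 and FORKO replicate 1, in a range of -0.76 to 0.27). Postn minus Col1a1 turned to -0.68 without FORKO replicate 1 and -0.05 without WT replicate 3, in a range of -0.68 to 0.61. The cause was not tested. The replicate block changed no call of the set other than those of Col5a2 and Lum. With 3 arrays a group, SEs of 0.12 to 0.66 on the log2 scale limit what could be detected.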
